A study of Mus musculus with 12 samples.

Results

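The 10 genes described here are the 7 sirtuin genes of the mouse, Sirt1 to Sirt7, and 3 genes of the NAD salvage route, Nampt, Nmnat1 and Nmnat3. They were chosen by symbol, as the rows of the deposited gene table that carry these names, and make up 10 of the 29564 rows. All 10 had a row, and 9 of them passed the filter on low counts and were tested; Sirt5 did not pass and is described on its own. The libraries were made from poly(A) RNA of the left ventricle, 1 library for each of 12 wild-type C57BL6 mice, with 4 mice in each of 3 groups. Control + Veh hearts were non-failing and received vehicle. HFpEF + Veh hearts came from a model of HFpEF (heart failure in which ejection fraction is preserved) made with high-fat diet and L-NAME, where L-NAME blocks nitric oxide synthases and raises blood pressure, and they also received vehicle. HFpEF + TYA-018 hearts came from the same model after TYA-018, an inhibitor of the histone deacetylase HDAC6, by mouth at 15 mg/kg, and are also called treated hearts here. The vehicle of all 3 groups is given as a mix of DMSO, PEG-300 and water. The series is titled as a single-dose experiment, which is also how the study describes hearts taken hours after a dose, whereas the treatment protocol in the labels describes daily dosing over weeks. The study's methods name male C57BL/6J mice as its wild-type animals. The labels give no sex, age, sequencing batch or time of day, and animals of a group carry neighbouring numbers, so cage, date and order of processing cannot be told apart from group.

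Sirtuins are deacylases and ADP-ribosyltransferases that consume NAD with each reaction, unlike HDAC6, which is a zinc-dependent deacetylase. SIRT1, SIRT6 and SIRT7 act mainly in the nucleus, SIRT2 mainly in the cytosol, and SIRT3, SIRT4 and SIRT5 in mitochondria, where SIRT3 is the principal deacetylase. NAMPT makes nicotinamide mononucleotide from nicotinamide, the rate-limiting step of salvage, and the NMNAT enzymes turn it into NAD, NMNAT1 in the nucleus and NMNAT3 in mitochondria. The heart relies on this salvage route for much of its NAD, and NAD and its reduced form carry electrons between fuel oxidation and the respiratory chain.

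All 10 are protein-coding genes of the GRCm38 assembly. In GENCODE M21, the annotation release used here, Sirt1 lies on the minus strand at chr10:63319005-63381704, Sirt2 on the plus strand at chr7:28766735-28788661, Sirt3 on the minus strand at chr7:140863666-140882309 and Sirt4 on the minus strand at chr5:115478010-115484725. Sirt5 lies on the plus strand at chr13:43365496-43395203, Sirt6 on the minus strand at chr10:81621785-81627797 and Sirt7 on the minus strand at chr11:120618372-120625240. The salvage genes are Nampt on the plus strand at chr12:32819545-32853349, Nmnat1 on the minus strand at chr4:149467572-149485202 and Nmnat3 on the plus strand at chr9:98287435-98420438. Exons of Sirt3 overlap those of Ric8a and Psmd13 on the opposite strand over 7% and 5.73% of the exonic bases of Sirt3. Sirt7 overlaps Mafg on the same strand over 2.41%, so reads from that stretch may be shared. The study's methods name a stranded library kit. Reads of the opposite-strand stretches may be shared with Sirt3 only if quantification did not use the strand, and that setting is not stated. At 31 bases, a length typical of read matching, 16.3% of the stretches in Sirt5 transcripts and 7.9% of those in Nmnat1 also occurred in transcripts of other genes, against at most 2.19% for every other member.

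Promoter sequence is shown for the 3 sirtuins whose mRNA differed after TYA-018 (Sirt1, Sirt3 and Sirt4) and for Nampt. Scaled counts of Nampt were lower in both HFpEF groups than in Control + Veh. Each window is from RefSeq on GRCm38.p6, reads 5′ to 3′ on the strand of the gene, and runs from 250 bases before an annotated transcript start to 50 bases after it. The windows are chr10:63338986-63339285 for Sirt1, chr7:140881820-140882119 for Sirt3, chr5:115484248-115484547 for Sirt4 and chr12:32820085-32820384 for Nampt. Capitals mark matches on either strand to 4 motifs: CACGTG, the E-box bound by CLOCK-BMAL1 and other basic helix-loop-helix factors; GGGCGG, the GC box bound by Sp factors; AAGGTCA, the half-site of estrogen-related receptors; and the palindromic site of nuclear respiratory factor 1.
Sirt1: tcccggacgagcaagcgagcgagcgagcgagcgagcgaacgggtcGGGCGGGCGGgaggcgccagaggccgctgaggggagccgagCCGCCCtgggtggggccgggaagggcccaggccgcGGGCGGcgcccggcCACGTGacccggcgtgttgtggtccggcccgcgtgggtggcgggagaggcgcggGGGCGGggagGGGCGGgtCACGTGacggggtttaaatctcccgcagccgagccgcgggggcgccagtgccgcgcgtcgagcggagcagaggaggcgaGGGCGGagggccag
Sirt3: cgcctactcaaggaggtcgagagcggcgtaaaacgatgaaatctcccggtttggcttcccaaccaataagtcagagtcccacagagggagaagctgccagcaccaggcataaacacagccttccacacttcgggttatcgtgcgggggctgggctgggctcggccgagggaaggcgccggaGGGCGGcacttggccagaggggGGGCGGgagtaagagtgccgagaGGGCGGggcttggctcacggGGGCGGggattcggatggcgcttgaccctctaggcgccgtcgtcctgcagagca
Sirt4: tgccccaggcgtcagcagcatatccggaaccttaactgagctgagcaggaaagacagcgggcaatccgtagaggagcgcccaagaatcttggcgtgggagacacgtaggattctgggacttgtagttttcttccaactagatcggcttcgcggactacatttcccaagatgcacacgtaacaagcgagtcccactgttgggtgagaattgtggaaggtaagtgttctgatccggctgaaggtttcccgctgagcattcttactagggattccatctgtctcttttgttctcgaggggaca
Nampt: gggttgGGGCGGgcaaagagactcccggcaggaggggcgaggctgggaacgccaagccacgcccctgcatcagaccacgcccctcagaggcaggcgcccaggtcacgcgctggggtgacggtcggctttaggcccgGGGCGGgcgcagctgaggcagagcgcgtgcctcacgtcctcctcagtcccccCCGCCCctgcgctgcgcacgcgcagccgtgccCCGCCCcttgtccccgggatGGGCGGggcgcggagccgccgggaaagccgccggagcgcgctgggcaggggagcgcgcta

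The Sirt1 window held 2 E-boxes and 7 GC boxes, 2 of the latter overlapping each other. Of all 32851 RefSeq windows of this length, 7.15% held an E-box and 0.594% held at least 2. The Nampt window held 5 GC boxes and the Sirt3 window held 4, where 35.7% of all windows held at least 1 and 5.49% at least 4. The Sirt4 window, and the other Sirt3 window at chr7:140882260-140882559, held none of the 4 motifs. Among the 13 windows of the 10 members, AAGGTCA (4.72% of all windows) occurred in those of Nmnat3 and Sirt5, and the nuclear respiratory factor 1 site (0.971%) in 1 window of Sirt6. These matches describe letters only, and no binding was measured.

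Total estimated counts were 61.2 M to 83.9 M a library (M, 1e+06), and 14333 genes passed the filter and were tested. Markers of cardiomyocytes were high in every library, at 25500 to 37800 CPM (counts per 1e+06 counts of the library) summed over 8 genes, and all 8 were detected. Several measures set the HFpEF + Veh libraries apart from both other groups. Mitochondrially encoded genes took 45.1% ± 2.06 (SD, n = 4) of their counts, against 38.8% ± 1.58 in Control + Veh and 38.9% ± 2.65 in HFpEF + TYA-018 (exact two-sided permutation p = 0.0286 for each, the smallest that 4 against 4 allows, and 0.049 adjusted over 12 tests). The summed level of 7 red cell genes was 4790 to 14200 CPM in HFpEF + Veh, against 1550 to 2310 in Control + Veh and 2300 to 3570 in HFpEF + TYA-018. The summed level of 6 endothelial genes was 792 to 982 CPM, against 608 to 761 and 596 to 773, and that of the 7 macrophage genes with a row was 159 to 206 CPM, against 102 to 138 and 116 to 143. The summed level of 6 fibroblast genes was 608 to 862 CPM in HFpEF + Veh, which overlapped Control + Veh (411 to 616) and lay above the treated hearts (398 to 587). That of the 8 cardiomyocyte genes was 25500 to 27600 CPM in HFpEF + Veh, which overlapped Control + Veh (27400 to 37800) and lay below the treated hearts (29400 to 33000). Of those 8 genes, 5 were called lower and 1 higher in HFpEF + Veh against Control + Veh, and 3 higher after TYA-018. The cardiomyocyte sum moved in the same direction as Sirt3 and Sirt4 below. The red cell, endothelial, macrophage and fibroblast sums moved the opposite way, and the part of these measures in the results was not tested. In bulk tissue, fewer cells of a type and less mRNA per cell cannot be told apart.

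Compared per transcript length, in TPM (transcripts per 1e+06 transcripts), Sirt2 was the most abundant member at 29 ± 6.41 TPM (SD over the 12 libraries). Its lowest library, at 18.8 TPM, was above the highest library of any other member. Nampt followed at 6.12 TPM and Sirt3 at 5.33 TPM, with overlapping ranges, and Nampt was above Sirt3 in only 7 of 12 libraries. Nmnat1 (3.3 TPM), Sirt7 (2.74 TPM) and Sirt4 (2.55 TPM) came next, and these neighbours also overlapped, Sirt7 being above Sirt4 in 6 of 12 libraries. Sirt4 was above Nmnat3 (1.47 TPM) in all 12 libraries, and Nmnat3 above Sirt1 (0.973 TPM) in 11. Sirt6, a chromatin deacylase, had the lowest mean of the tested members at 0.865 TPM, with a range that overlapped that of Sirt1, which was above it in 9 of 12 libraries. With Sirt5 taken at its listed values, which are 0 in 11 libraries, Sirt2 made up 70.4% ± 3.85 (SD, n = 4) of all sirtuin TPM in Control + Veh, 71.9% ± 4.15 in HFpEF + Veh hearts and 68% ± 5.02 in treated hearts. The mitochondrial sirtuins together made up 17.2% ± 1.41, 17.9% ± 3.25 and 21.6% ± 3.89 in the same order, ranges that overlapped between all 3 groups. The effective lengths behind TPM varied between libraries, from 1144 to 1894 bases for Sirt3 and from 1406 to 3300 bases for Sirt7. For Nampt they ran from 5070 to 7284 bases, above the longest annotated transcript of 4527 bases. The highest effective length also exceeded the longest annotated transcript for Sirt6 (2830 against 1891 bases), Nmnat3 (2343 against 2166), Sirt1 (4671 against 4430) and Sirt7 (3300 against 3274), so the places of these 5 genes in the order are uncertain.

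**Figure D1:**
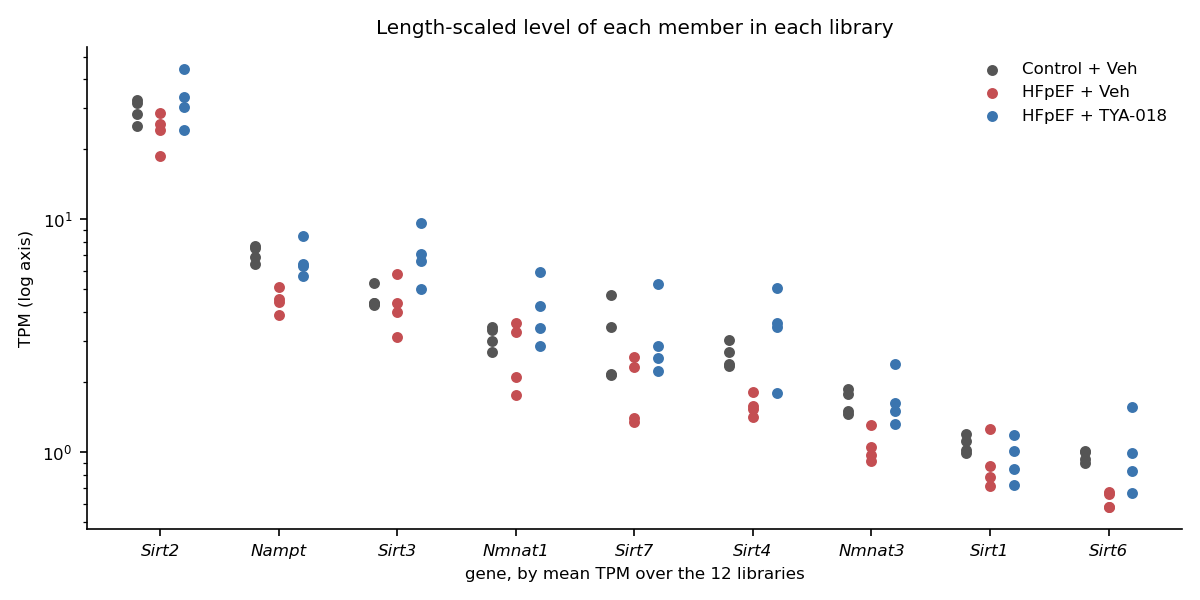
Level of the 9 tested members in each of the 12 libraries, in TPM on a log axis, with genes ordered by mean and each point 1 mouse, coloured by group. Sirt2 lies between 18.8 and 44.3 TPM, above every point of the other members, while the ranges of most neighbouring genes overlap.

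Sirt5, the mitochondrial desuccinylase, was listed at 0 in 11 of the 12 libraries. The exception was replicate 1 of HFpEF + Veh, with 114 estimated counts and 0.422 TPM. It was 1 of 13 rows of the table with over 100 estimated counts in a single library and 0 in the other 11, and 3 of 84 ribosomal protein genes were also listed at 0 in all 12 libraries. A listed 0 in this table therefore need not mean that no transcript was present, and no level or fold change is given for Sirt5.

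In hearts of the HFpEF model on vehicle, 5 of the 9 tested members were lower than in Control + Veh and none was higher: the mitochondrial sirtuins Sirt3 and Sirt4, the nuclear Sirt7, and the salvage enzymes Nampt and Nmnat3. The threshold was an adjusted p under 0.05 in edgeR's quasi-likelihood F test, which called 21.2% of all genes in either direction and 10.3% as lower. The median log2 fold change of the 9 members was -0.28, against -0.01 over all genes tested. After TYA-018, 3 of the 9 differed from HFpEF + Veh, where 19.3% of all genes did: Sirt3 and Sirt4 were higher and Sirt1 was lower (8.93% of all genes were called higher and 10.4% lower). The members' median there was 0.16, against 0.00 over all genes. Against Control + Veh, 1 member was called in HFpEF + TYA-018 hearts, Nampt, which was lower, where 5.86% of all genes were called and 2.74% were lower. The members' median was -0.09, against -0.02 over all genes. Each pair of these comparisons shares a group of libraries, so their results are not independent of each other. The median log2 effective length of all genes, relative to each gene's mean, was 0.0779 in HFpEF + Veh, against -0.00867 in Control + Veh and -0.0657 in HFpEF + TYA-018. When the fit took account of effective lengths the calls of Sirt3, Sirt4 and Sirt7 against Control + Veh and those of Sirt1 and Sirt3 after TYA-018 were lost, while Sirt6 was called as lower. With the mitochondrially encoded genes left out, the same 5 and the same 3 members were called, and Nampt in treated against control hearts was not (adjusted p = 0.0515). A limma fit on log2(TPM + 1) of the same genes called 0 of the 9 members in HFpEF + Veh against Control + Veh, with 4 at an unadjusted p under 0.05. After TYA-018 it called 3 as higher, Nampt, Sirt3 and Sirt4, on a scale where the median of all genes was 0.17 and 2228 genes were called higher and 68 lower. With TPM first rescaled to detected protein-coding genes without mitochondrially encoded ones, closer to the values the study worked on, limma called Nampt in HFpEF + Veh against Control + Veh (adjusted p = 0.0353) and 0 members after TYA-018, with 2 at an unadjusted p under 0.05.

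**Figure D2:**
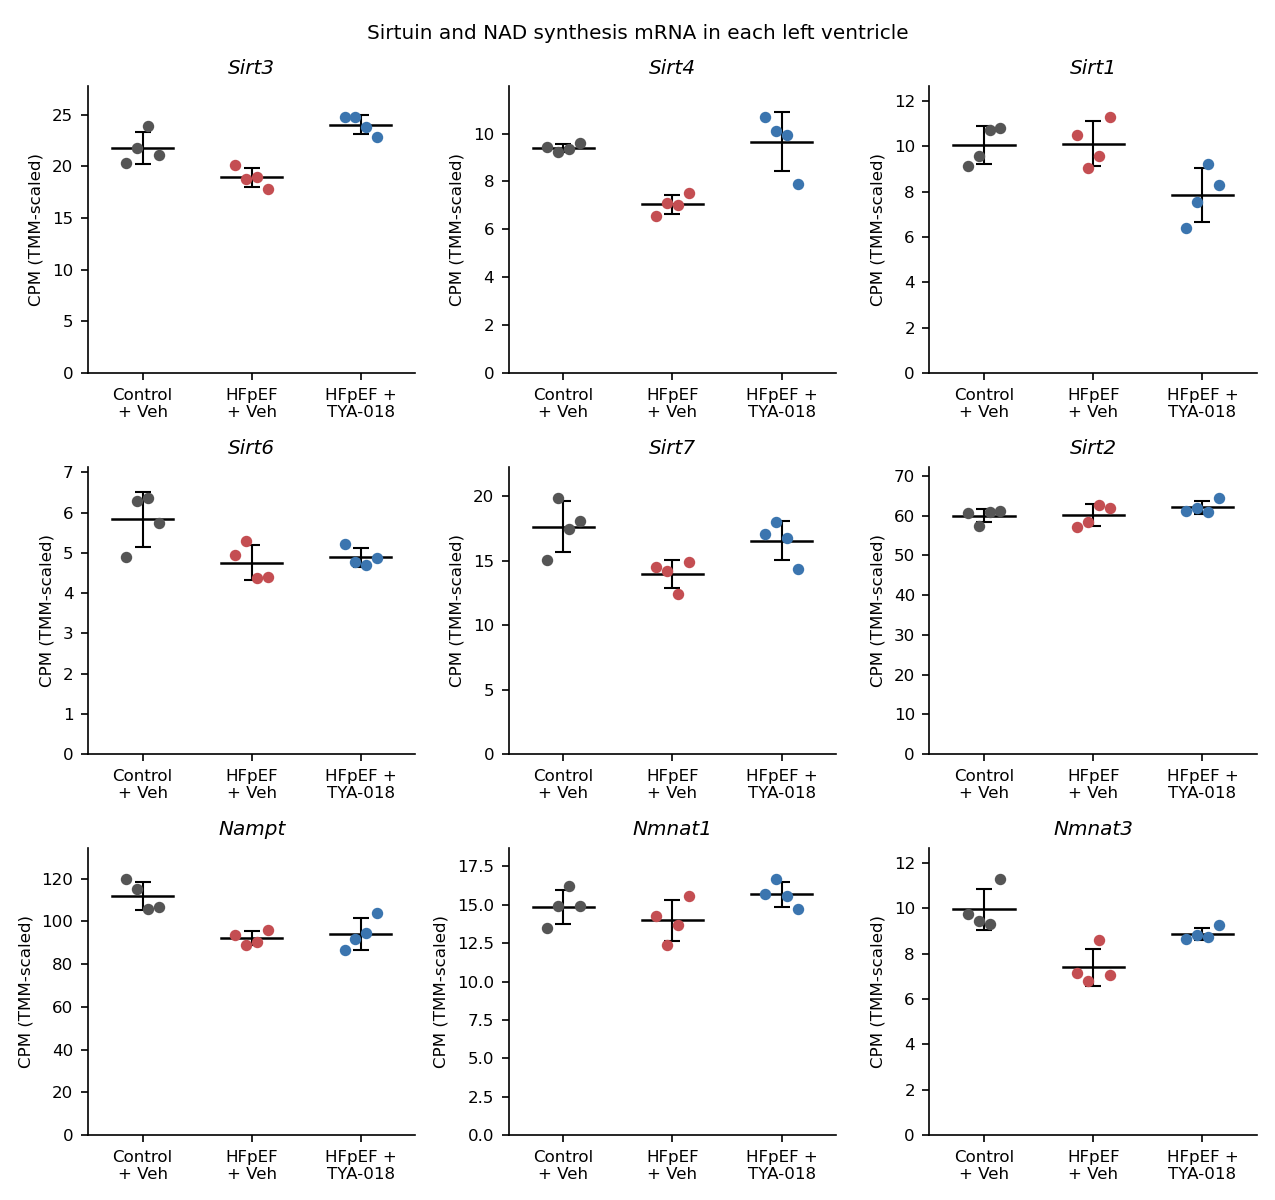
CPM after TMM scaling of the 9 tested members in each library (points), with the group mean (long line) and SD (error bar), 4 mice in each group. On this scale the HFpEF + Veh points of Sirt3, Sirt4, Sirt7, Nampt and Nmnat3 lie below all Control + Veh points, and the HFpEF + TYA-018 points of Sirt3 and Sirt4 lie above all HFpEF + Veh points; for Sirt3 the first difference changed direction when effective lengths were used.

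Sirt4, a mitochondrial lipoamidase and deacylase that acts on malonyl-CoA decarboxylase and the pyruvate dehydrogenase complex, was called in both comparisons with HFpEF + Veh. Its Control + Veh libraries stood at 9.44, 9.21, 9.35 and 9.6 CPM, its HFpEF + Veh libraries at 6.55, 7.08, 7 and 7.53 CPM, and its HFpEF + TYA-018 libraries at 10.7, 10.1, 9.94 and 7.9 CPM. Every HFpEF + Veh heart was below every heart of both other groups, and the lowest treated heart, replicate 4, was close to them. Against Control + Veh, Sirt4 in HFpEF + Veh was lower at a log2 fold change of -0.42 ± 0.0899 (SE; edgeR adjusted p = 0.0078). It was higher in HFpEF + TYA-018 than in HFpEF + Veh, by 0.46 ± 0.0899 (edgeR adjusted p = 0.006). Treated and control hearts differed by 0.04 ± 0.0892 (edgeR adjusted p = 0.846). Both calls held when any single library was left out, with log2 fold changes from -0.45 to -0.38 and from 0.40 to 0.54. With effective lengths in the fit, the difference in the model was -0.51 (adjusted p = 0.0522) and that after TYA-018 was 0.62 (adjusted p = 0.0261).

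Sirt3 deacetylates enzymes of fatty acid oxidation, the citric acid cycle and the respiratory chain. Its CPM were 20.3, 21.8, 23.9 and 21.1 in Control + Veh, 20.1, 18.8, 19 and 17.8 in HFpEF + Veh hearts, and 24.8, 24.8, 23.8 and 22.8 in treated hearts. The highest HFpEF + Veh heart was only just below the lowest Control + Veh heart, whereas all treated hearts stood clear of the HFpEF + Veh hearts. Sirt3 was higher after TYA-018 than in HFpEF + Veh, by 0.35 ± 0.0636 on the log2 scale (edgeR adjusted p = 0.00441), and this call held without any single library. The decrease in HFpEF + Veh against Control + Veh was small, at -0.20 ± 0.0637 (edgeR adjusted p = 0.0393), and was lost when any of 8 of the 12 libraries was left out: Control + Veh replicate 2, 3 or 4, HFpEF + Veh replicate 2, 3 or 4, or HFpEF + TYA-018 replicate 2 or 3. The highest adjusted p was 0.115, without Control + Veh replicate 3. Treated and control hearts differed by 0.14 ± 0.0634 (edgeR adjusted p = 0.212). The effective length of Sirt3 ran from 1420 to 1894 bases in Control + Veh, from 1144 to 1864 in HFpEF + Veh and from 1300 to 1477 in HFpEF + TYA-018. In TPM, where the estimated count is divided by that length, Control + Veh and HFpEF + Veh overlapped, at 4.27 to 5.33 and 3.12 to 5.8, and HFpEF + TYA-018 stood at 5 to 9.6. With effective lengths in the fit, the difference of HFpEF + Veh from Control + Veh turned to 0.12 (adjusted p = 0.567), and the difference of HFpEF + TYA-018 from HFpEF + Veh fell to 0.25 (adjusted p = 0.231).

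Sirt1, the nuclear deacetylase of PGC-1alpha and FOXO factors, was called after TYA-018 only, as lower. Its CPM were 9.14, 9.56, 10.7 and 10.8 in Control + Veh, 10.5, 9.05, 9.59 and 11.3 in HFpEF + Veh hearts, and 6.39, 7.55, 9.23 and 8.28 in treated hearts. The model and control hearts overlapped, and 3 of 4 treated hearts lay below all of them. HFpEF + Veh differed from Control + Veh by 0.01 ± 0.113 on the log2 scale (edgeR adjusted p = 0.973). Sirt1 was lower in HFpEF + TYA-018 than in HFpEF + Veh by -0.36 ± 0.113 (edgeR adjusted p = 0.0428), with groups that overlapped, and the difference of -0.35 ± 0.113 from Control + Veh was not called (edgeR adjusted p = 0.0883). The call of Sirt1 after TYA-018 held only without Control + Veh replicate 1 or 2, HFpEF + Veh replicate 2 or HFpEF + TYA-018 replicate 3, and was lost without any of the other 8 libraries, with an adjusted p of up to 0.115 without HFpEF + TYA-018 replicate 1. On log2(TPM + 1) the difference was 0.03 (adjusted p = 0.862), where the median of all genes was itself 0.17, and -0.14 relative to that median.

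Sirt7, a nucleolar deacetylase tied to ribosomal RNA synthesis, measured 15.1, 19.9, 17.5 and 18.1 CPM in Control + Veh, 14.5, 14.2, 12.4 and 14.9 CPM in HFpEF + Veh hearts, and 17.1, 18, 16.8 and 14.4 CPM in treated hearts. All HFpEF + Veh hearts were below all Control + Veh hearts, by a narrow gap, and the treated hearts overlapped both groups. Its decrease in the model was -0.33 ± 0.0965 on the log2 scale (edgeR adjusted p = 0.0295). This call was lost without Control + Veh replicate 2, 3 or 4 or HFpEF + Veh replicate 2 or 3, with adjusted p-values up to 0.0854. The difference after TYA-018 was 0.24 ± 0.0964 (edgeR adjusted p = 0.0984). Sirt6, a nuclear deacylase of histone H3 that acts at telomeres and on glycolytic genes, was not called in any of the 3 comparisons. Its CPM ranged from 4.9 to 6.37 in Control + Veh, from 4.38 to 5.29 in HFpEF + Veh and from 4.69 to 5.21 in HFpEF + TYA-018, with differences of -0.29 ± 0.104 between HFpEF + Veh and Control + Veh (edgeR adjusted p = 0.0638) and 0.04 ± 0.104 after TYA-018 (edgeR adjusted p = 0.825). With effective lengths in the fit the first of these was -0.41 (adjusted p = 0.0472).

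Sirt2, the mainly cytosolic tubulin deacetylase and so a sirtuin that shares a substrate with HDAC6, was the steadiest tested member in CPM. Its CPM had a coefficient of variation of 3.5% over the 12 libraries, against 8.25% to 16.1% for the other tested members. The groups overlapped, at 57.5 to 61.2 CPM in Control + Veh, 57.2 to 62.8 in HFpEF + Veh hearts and 60.8 to 64.5 in treated hearts. HFpEF + Veh differed from Control + Veh by a log2 fold change of 0.00 ± 0.0487 and HFpEF + TYA-018 from HFpEF + Veh by 0.05 ± 0.0487 (edgeR adjusted p = 0.979 and 0.542). In TPM, Sirt2 varied more relative to its mean (29 ± 6.41, SD over the 12 libraries) than Sirt1 did (0.973 ± 0.189). On log2(TPM + 1) its difference after TYA-018 was 0.41 (limma adjusted p = 0.112), or 0.24 relative to the median of all genes.

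Of the salvage enzymes, Nampt was lower in CPM in HFpEF hearts with and without TYA-018. Its CPM were 120, 115, 106 and 107 in Control + Veh, 93.8, 88.8, 90.5 and 95.8 in HFpEF + Veh hearts, and 86.5, 91.7, 94.5 and 104 in treated hearts. In CPM, all 8 model hearts lay below the 4 control hearts, and the 2 model groups overlapped. In TPM, treated hearts (5.69 to 8.49) overlapped Control + Veh (6.41 to 7.67) and lay above HFpEF + Veh (3.88 to 5.14). HFpEF + Veh was lower than Control + Veh by -0.28 ± 0.0665 on the log2 scale (edgeR adjusted p = 0.0126), a call that held without any single library and with effective lengths in the fit (adjusted p = 0.011). HFpEF + TYA-018 was lower than Control + Veh by -0.25 ± 0.0664 (edgeR adjusted p = 0.0496). That value lies at the threshold, and the call was lost without any of 11 of the 12 libraries, the exception being HFpEF + TYA-018 replicate 4 (adjusted p = 0.0306). The call was also lost with effective lengths in the fit, at -0.32 (edgeR adjusted p = 0.0873). On log2(TPM + 1) treated and control hearts differed by -0.08 (limma adjusted p = 0.736), or -0.16 relative to the median of all genes. The difference between treated and untreated HFpEF hearts was 0.03 ± 0.0664 (edgeR adjusted p = 0.781). On log2(TPM + 1) it was 0.48 (limma adjusted p = 0.0325), or 0.31 relative to the median of all genes on that scale, and with effective lengths in the edgeR fit it was 0.13 (adjusted p = 0.4).

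Nmnat3, the mitochondrial isoform of the last salvage step, stood at 9.75, 9.43, 9.3 and 11.3 CPM in Control + Veh, 7.13, 6.78, 8.6 and 7.06 CPM in HFpEF + Veh hearts, and 8.63, 8.84, 8.73 and 9.27 CPM in treated hearts. In CPM the 3 groups did not overlap, with the treated hearts between the model and the control hearts. Both gaps were narrow, from HFpEF + Veh replicate 3 at 8.6 to 8.63, and from 9.27 to the lowest control heart at 9.3. In TPM, treated hearts (1.32 to 2.39) overlapped Control + Veh (1.45 to 1.86) and lay just above HFpEF + Veh (0.912 to 1.31). HFpEF + Veh was lower than Control + Veh by -0.43 ± 0.0891 on the log2 scale (edgeR adjusted p = 0.00672), which held without any single library and with effective lengths in the fit (adjusted p = 0.032). The difference after TYA-018, 0.26 ± 0.0891, was not called (edgeR adjusted p = 0.0585), nor was that between treated and control hearts, -0.16 ± 0.0886 (edgeR adjusted p = 0.302). Without HFpEF + Veh replicate 3 the difference after TYA-018 was 0.34 (adjusted p = 0.0212). Nmnat1, the nuclear isoform, overlapped between all groups, at 13.5 to 16.2, 12.4 to 15.6 and 14.7 to 16.7 CPM, and was called in no comparison, with log2 fold changes of -0.09 ± 0.0802 in the model and 0.16 ± 0.0801 after TYA-018 (edgeR adjusted p = 0.476 and 0.179). Counted over the members, the CPM of HFpEF + Veh and Control + Veh did not overlap for 5 of 9 genes, where 23.5% of all genes did not. For HFpEF + TYA-018 against HFpEF + Veh it was 3 of 9 (Sirt3, Sirt4 and Nmnat3), where the share of all genes was 25.1%, and for HFpEF + TYA-018 against Control + Veh 2 of 9 (Nampt and Nmnat3), where it was 14.8%.

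**Figure D3:**
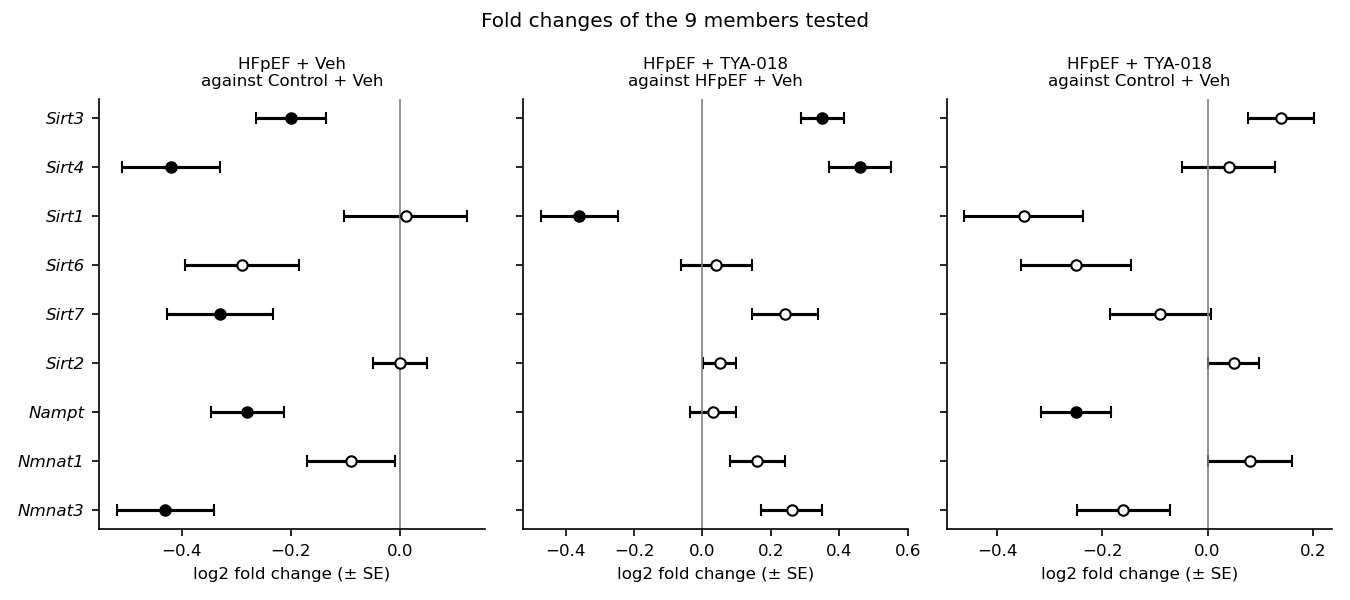
Log2 fold change of each tested member in the 3 comparisons, with error bars of 1 SE and filled circles for an edgeR adjusted p under 0.05. For HFpEF + Veh against Control + Veh, 5 filled circles lie below 0, and after TYA-018 Sirt3 and Sirt4 lie above 0 and Sirt1 below it; with effective lengths in the fit the first Sirt3 value turned to 0.12, and on log2(TPM + 1) the Sirt1 value after TYA-018 turned to 0.03.

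Ratios between members within a library do not depend on how libraries are scaled, but they do depend on effective lengths, which varied between libraries. For each estimated count of Sirt1 there were 2.22, 2.28, 2.24 and 1.96 of Sirt3 in the Control + Veh libraries, 1.93, 2.08, 1.98 and 1.57 in HFpEF + Veh hearts, and 3.88, 3.29, 2.57 and 2.75 in treated hearts. All 4 treated hearts were above all 8 other hearts, while model and control hearts overlapped. The ratio of Sirt4 to Sirt1 was 1.03, 0.963, 0.875 and 0.892 in Control + Veh, 0.627, 0.782, 0.731 and 0.668 in HFpEF + Veh hearts, and 1.68, 1.33, 1.08 and 0.955 in treated hearts. Here the HFpEF + Veh hearts were below all others, and treated and control hearts overlapped. The ratio of Nampt to Sirt2 was 1.74 to 1.99 in Control + Veh, 1.44 to 1.64 in HFpEF + Veh hearts and 1.41 to 1.62 in treated hearts, so that both model groups lay below the controls. These are ratios of counts, not of levels per length, and are given as a description without a test. Taken from TPM instead, none of these separations held in full. For example, replicate 3 of HFpEF + TYA-018 had 6.65 TPM of Sirt3 and 1.01 of Sirt1. That ratio is not above the one of HFpEF + Veh replicate 3, at 5.8 and 0.869. Treated hearts still lay above all Control + Veh hearts in the TPM ratio of Sirt3 to Sirt1. In that of Sirt4 to Sirt1, HFpEF + Veh hearts still lay below all treated hearts but overlapped Control + Veh. In that of Nampt to Sirt2, all groups overlapped. Sirt3 and Sirt4 were called higher and Sirt1 lower after TYA-018 on these same counts, so the ratios add no separate evidence.

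**Figure D4:**
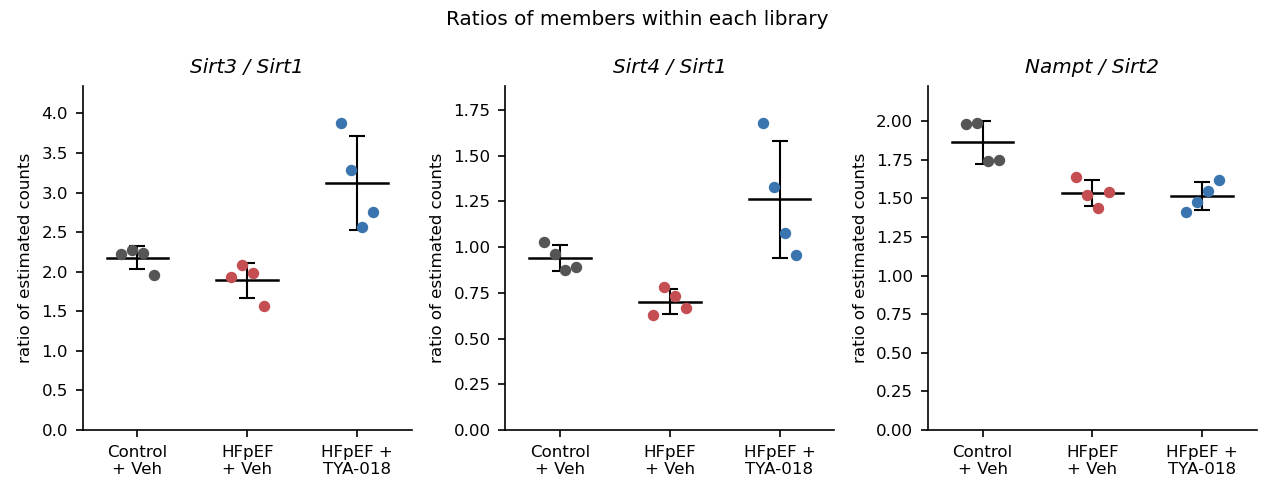
Ratio of the estimated counts of 2 members in each library (points), with group mean and SD. The Sirt3 to Sirt1 ratio is 2.57 to 3.88 in HFpEF + TYA-018, above all points of the other groups, and the Nampt to Sirt2 ratio is below all Control + Veh points in both HFpEF groups. Taken from TPM, the Sirt3 to Sirt1 ratio of HFpEF + TYA-018 overlapped HFpEF + Veh but not Control + Veh. The Nampt to Sirt2 ratio then overlapped between Control + Veh and both HFpEF groups.

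For each member called in a comparison, the genes with the most similar pattern over the 12 libraries were found by the root mean square difference of centred log2 CPM. The closest match was to Sirt3, where Gtpbp3 differed by 0.0264 and G6pc3 by 0.0606, against a median of 0.278 over all genes. The log2 fold change of Gtpbp3 was -0.23 in the model and 0.37 after TYA-018. Because it was picked for likeness to Sirt3 in these same libraries, fold changes close to those of Sirt3 follow from the choice. Nearest to Sirt4 were Cenpa (0.0765) and Acp6 (0.085), nearest to Sirt1 were Corin (0.0915) and Rfx7 (0.0997), and nearest to Sirt7 were Dvl1 (0.0538) and Mib2 (0.0591). Nampt was closest to B4galt6 (0.0566) and Prrx1 (0.0613), and Nmnat3 to Fgf13 (0.0802) and Ank2 (0.0993). No gene was among the 2 nearest of more than 1 member.

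The other genes of NAD metabolism were read from 3 lists with 33 genes in all, of which 30 were tested. Of 14 further synthesis genes, which cover the kynurenine route from tryptophan, the nicotinic acid route and the nicotinamide riboside kinases, 11 were tested and none was called in any comparison by edgeR. At an unadjusted edgeR p under 0.05, 2 of the 11 passed in HFpEF + Veh against Control + Veh, Nmrk2 (log2 fold change -0.70) and Kmo (-0.99), 2 passed after TYA-018, Naprt (1.02) and Nmnat2 (-0.82), and 0 in treated against control hearts. DESeq2 called Nmrk2 in the first comparison and Naprt in the second. These 4 genes are named after their values were seen. Of the 11, 7 were sparse, with all group means below 1 CPM, and the list's median log2 fold change was -0.63 in the model and 0.34 after TYA-018. The summed level of 8 hepatocyte genes moved with the groups as well, at 32.5 to 90.4 CPM in Control + Veh, 5.21 to 18.6 in HFpEF + Veh hearts and 6.12 to 78.1 in treated hearts, and its part in these sparse genes was not tested.

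Among 8 NAD-consuming enzymes other than sirtuins, 2 were lower in the HFpEF + Veh hearts than in Control + Veh (21.2% of all genes called), with a list median of -0.03 on the log2 scale. After TYA-018, 1 was higher and 1 lower (19.3% of all genes called), with a median of 0.03. Parp1, the main poly(ADP-ribose) polymerase of DNA repair, was 24.5, 21.3, 24.3 and 24.9 CPM in Control + Veh, 19.7, 18.9, 21.9 and 20.4 in HFpEF + Veh hearts, and 26.5, 24.6, 26.4 and 24.6 in treated hearts. Parp1 differed by -0.23 ± 0.0658 on the log2 scale in the model (edgeR adjusted p = 0.0264) and 0.34 ± 0.0658 after TYA-018 (edgeR adjusted p = 0.00588), and the treated hearts stood above all HFpEF + Veh hearts. In treated against control hearts edgeR called 0 of the 8, with 1 (Parp3) at an unadjusted p under 0.05, and DESeq2 also called 0. Parp3 was lower in the model by -0.18 ± 0.0551 (edgeR adjusted p = 0.0348) and did not pass the test after TYA-018 (0.03 ± 0.0551 by the fit; adjusted p = 0.782). Cd38, an NAD glycohydrolase, was lower after TYA-018 by -0.43 ± 0.132 (edgeR adjusted p = 0.0393), from 14.8 to 18.2 CPM in HFpEF + Veh to 10.2 to 15 CPM, beside the shift in macrophage and endothelial marker levels given above, whose part was not tested.

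Of 11 carriers, kinases and clearance genes, 5 were called in HFpEF + Veh against Control + Veh (21.2% of all genes called) and 5 after TYA-018 (19.3% of all genes called). Each time 2 were higher and 3 lower, with list medians of 0.00 and -0.18 on the log2 scale. Nnt, which encodes an inner membrane transhydrogenase, had the highest level of this list in CPM. It was 434, 426, 468 and 441 CPM in Control + Veh, 335, 320, 339 and 365 in HFpEF + Veh hearts, and 399, 400, 384 and 432 in treated hearts, so that the HFpEF + Veh hearts were below all others. The log2 fold change of Nnt was -0.38 ± 0.0616 in the model (edgeR adjusted p = 0.00186) and 0.25 ± 0.0615 after TYA-018 (edgeR adjusted p = 0.0166). These are values of mRNA, and whether these mice made working NNT enzyme was not measured. Aox1, an oxidase that clears N-methylnicotinamide, followed the same order as Nnt, with -0.63 ± 0.122 and 0.64 ± 0.122 (edgeR adjusted p = 0.00446 and 0.00539). Nadk, the cytosolic kinase that turns NAD into NADP, went the opposite way. It was 27.2 to 30.5 CPM in Control + Veh, 31.1 to 34.3 in HFpEF + Veh hearts and 26.6 to 28.4 in treated hearts, higher in the model by 0.19 ± 0.0516 (edgeR adjusted p = 0.0246) and lower after TYA-018 by -0.25 ± 0.0516 (edgeR adjusted p = 0.00783).

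The other calls of that list were in single comparisons except for Nt5e. In the model, Nudt13, a mitochondrial NADH pyrophosphatase, was lower by -0.47 ± 0.108 (edgeR adjusted p = 0.0107), and Slc12a8, which has been described as a carrier of nicotinamide mononucleotide, was higher by 1.16 ± 0.374 (edgeR adjusted p = 0.0454) at under 1 CPM in every library. After TYA-018, Pnp, which splits nicotinamide riboside as one of its substrates, was lower by -0.55 ± 0.122 (edgeR adjusted p = 0.00954). Nt5e, the ectonucleotidase CD73, was 12.2 to 16 CPM in Control + Veh, 11 to 15.2 in HFpEF + Veh hearts and 5.55 to 9.13 in treated hearts. The treated hearts were below both other groups, which overlapped, by -0.69 ± 0.151 against HFpEF + Veh (edgeR adjusted p = 0.00928) and -0.80 ± 0.151 against Control + Veh (edgeR adjusted p = 0.0137). Over all 3 lists, 7 of 30 tested genes were called in each of the first 2 comparisons, beside 21.2% and 19.3% of all genes, and 1 in the comparison of treated with control hearts, beside 5.86%. With effective lengths in the fit 3, 2 and 1 were called, and Nnt, Aox1, Nudt13 and Nt5e were the genes that kept a call in at least 1 comparison.

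**Figure D5:**
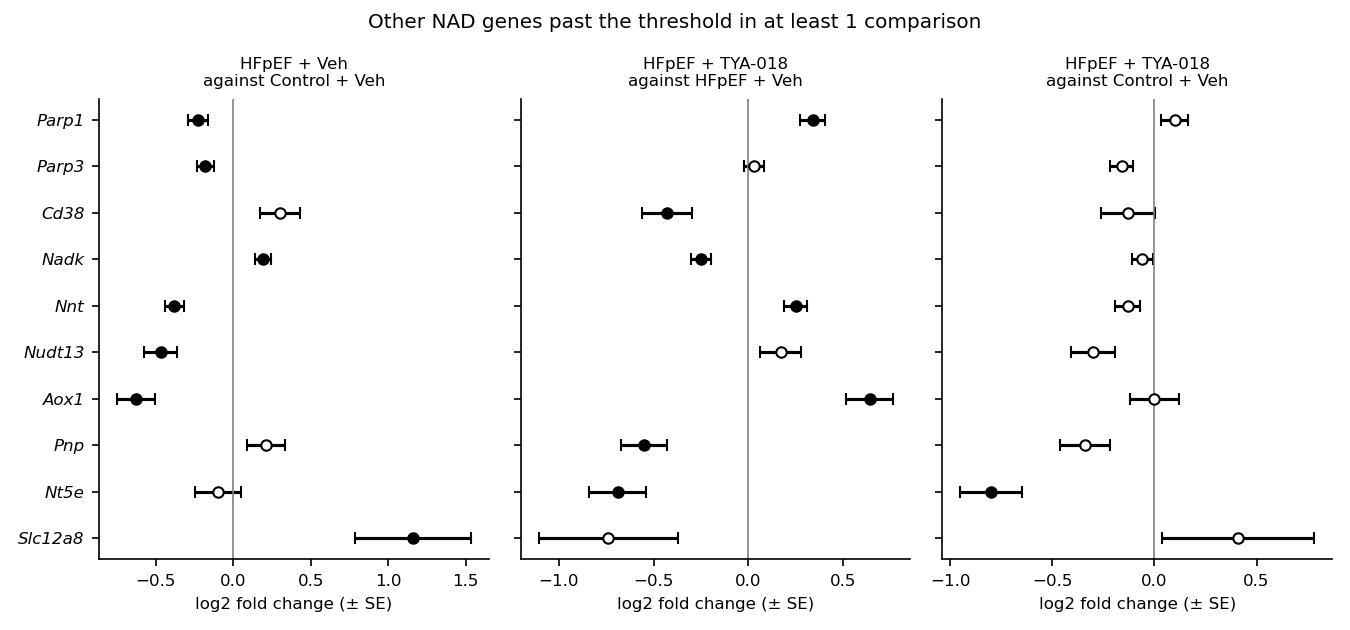
Log2 fold change of the 10 other NAD genes called in at least 1 comparison, with error bars of 1 SE and filled circles for an edgeR adjusted p under 0.05; each panel has its own horizontal range. Parp1, Nnt and Aox1 lie below 0 in the panel for HFpEF + Veh against Control + Veh and above it after TYA-018, Nadk lies the other way round, and Nt5e is filled in the panels for treated against untreated and treated against control hearts.

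Among 15 genes known to regulate sirtuins or to encode sirtuin substrates, 3 were higher and 3 lower in the HFpEF + Veh hearts than in Control + Veh (list median -0.03 on the log2 scale; 21.2% of all genes called). After TYA-018, 2 were higher and 1 lower (median 0.12; 19.3% of all genes called), and 2 were higher in treated than in control hearts (median 0.10; 5.86% of all genes called). Hic1, which encodes a transcriptional repressor of Sirt1, was 8.53 to 13.5 CPM in Control + Veh, 15.3 to 19.6 in HFpEF + Veh hearts and 9.41 to 14.9 in treated hearts, with a log2 fold change of 0.65 ± 0.161 in the model (edgeR adjusted p = 0.015) and -0.52 ± 0.16 after TYA-018 (edgeR adjusted p = 0.0397). Mlycd, which encodes the SIRT4 substrate malonyl-CoA decarboxylase, was lower in the model by -0.60 ± 0.0994 (edgeR adjusted p = 0.00202) and higher after TYA-018 by 0.50 ± 0.0992 (edgeR adjusted p = 0.00636). The SIRT3 substrate gene Idh2 was lower in the model by -0.35 ± 0.1 (edgeR adjusted p = 0.0287). Foxo1, which encodes a SIRT1 substrate, was higher in the model by 0.39 ± 0.0875 (edgeR adjusted p = 0.00894). Cps1, a liver urea cycle enzyme and SIRT5 substrate, was lower in the model by -2.79 ± 0.811 (edgeR adjusted p = 0.0297), at 0.0694 to 0.275 CPM against 0.452 to 1.7, beside the lower hepatocyte marker level. After TYA-018, Acss2 was higher than in HFpEF + Veh by 0.25 ± 0.0734 (edgeR adjusted p = 0.0357), and Acadl was higher than in Control + Veh by 0.33 ± 0.0884 (edgeR adjusted p = 0.0488).

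Nampt is a known output of the circadian clock, which NAD and SIRT1 in turn modulate, and 13 clock genes were read for that reason. In HFpEF + Veh, 4 of the 13 were lower than in Control + Veh, where 10.3% of all genes were: Dbp, Nr1d2, Per3 and Tef, with log2 fold changes from -0.63 to -0.40 and a list median of -0.27. Per3 was 37.9 to 44.2 CPM in Control + Veh, 24.1 to 27.8 in HFpEF + Veh hearts and 28.9 to 47.1 in treated hearts. After TYA-018, 3 of the 13 were called, where 19.3% of all genes were, and the list median was -0.06. Per3 and Tef were higher than in HFpEF + Veh by 0.59 ± 0.122 and 0.26 ± 0.0689 (edgeR adjusted p = 0.00722 and 0.0214). Nr1d1, which encodes the repressor REV-ERB alpha, was lower by -0.68 ± 0.161 (edgeR adjusted p = 0.0138). Nr1d2 was lower than in Control + Veh in treated hearts too, by -0.41 ± 0.0791 (edgeR adjusted p = 0.0153), as the 1 clock gene called there (5.86% of all genes called). In that comparison all 13 log2 fold changes were below 0, with a list median of -0.18, against -0.02 over all genes. The time of day at which each heart was taken is not in the labels, and its part in these values cannot be told apart from group.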

How the data were processed

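The deposited table held 3 values for each gene and library, made by the authors by trimming reads with fastp, quantifying transcripts with Salmon 1.6.0 (sequence, GC and position bias correction) and summing to genes with tximport. The deposited estimated counts, TPM and effective lengths in bases are all output of these steps by the authors. The authors' methods name mouse GENCODE transcripts on GRCm38, whereas the labels' build field reads hg38; gene symbols are those of mouse. The labels and methods also differ on read length and layout.

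The estimated counts were rounded and tested with edgeR 4.0.16 (R 4.3.3), a quasi-likelihood F test with TMM scaling, filterByExpr (minimum count 10), 12 libraries in 1 fit and Benjamini-Hochberg adjustment over 14333 genes, which held 99.98% of counts. Each SE was taken from the fold change and the F statistic. The script was tested on simulated data. Alternatives used DESeq2 1.42.0, the deposited effective lengths as offsets, other filters and scalings, limma 3.58.1 on log2(TPM + 1) or log2(TPM + 0.1) of the deposited TPM, and leaving out each library. TPM columns summed to 937748 to 963745. No libraries of a group were identical or alike within sampling noise. Sequence and figures were handled in Python 3.11.15.

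Text names all members, wider-list genes called in at least 1 comparison, and the 2 nearest patterns of each called member; other names are marked, and 1 called gene of the regulator and substrate list is counted but not reported here. The members and lists were chosen with earlier results of these data known. Replicate numbers follow sample order and only name a mouse.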

Additional observations from a re-analysis of the deposited data

Results flagged for a closer look

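Of 69 groups of 4 values checked over the members, 4 held a value whose gap to its nearest neighbour was large for the group's range, where chance gives about 1 in 20. Sirt2 in replicate 2 of Control + Veh was at 57.5 CPM, against 60.6 to 61.2 in the other 3 hearts of that group. Sirt3 in replicate 1 of Control + Veh was at 5.33 TPM, against 4.27 to 4.38 in the others, and its CPM there was the lowest of the group (20.3). Sirt5 in replicate 1 of HFpEF + Veh had 114 estimated counts and 0.422 TPM, against 0 in the other 3 hearts for both.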

How the results depend on the processing

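Over 594 alternative values for single members, 476 kept direction and side of the threshold, and 37 reversed. With the direction kept, 71 lost a call and 10 gained a call. The 37 include 2 for Sirt3 in HFpEF + Veh against Control + Veh and 3 for Sirt1 after TYA-018, where the call was lost as well. Most of the 594 belong to results that were not called in the main fit and so had no call to lose. Each pair of comparisons shares libraries, and the cause of a change was not tested. In HFpEF + Veh against Control + Veh, 5 members, 7 other NAD genes and 3033 of all genes were called. With effective lengths these were 3, 3 and 1445, on log2(TPM + 1) 0, 1 and 172, on log2(TPM + 0.1) 1, 2 and 301, on unfiltered log2(TPM + 1) 0, 0 and 33, and on TPM rescaled to detected protein-coding genes 1, 3 and 1055; with only the 2 groups fitted, 4 other NAD genes were called. At an unadjusted p under 0.05 the unfiltered limma fit held 4 members and 9 other NAD genes. The split of all calls, 1561 higher and 1472 lower, became 51 and 121, 93 and 208, 10 and 23, and 649 and 406 on the 4 TPM scales in that order. After TYA-018, 3 members, 7 other NAD genes and 2767 genes were called, against 1, 2 and 1217 with effective lengths, 4 other NAD genes on log2(TPM + 1), 1, 3 and 1051 unfiltered and 0, 2 and 742 rescaled (2 members at an unadjusted p under 0.05). There the split of 1280 higher and 1487 lower became 2228 and 68, 2548 and 70, and 1016 and 35 on the first 3 TPM scales, on which the median log2 fold change of all genes was 0.17, 0.34 and 0.06. In treated against control hearts, 1 member, 1 other NAD gene and 840 genes were called. DESeq2 called 2, 2 and 1514, and every other alternative with all libraries called 0 members (1 to 4 at an unadjusted p under 0.05); the 4 limma fits called 0 other NAD genes (2 at an unadjusted p under 0.05 in each), with 9, 11, 11 and 94 genes in all, and effective lengths left 203 genes.

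Leaving out each library in turn gave 3 to 6, 2 to 3 and 0 to 1 members in the 3 comparisons, 3 to 12, 6 to 7 and 1 to 3 other NAD genes, and 1986 to 3992, 1485 to 3251 and 308 to 809 genes. It took Sirt1 and Sirt2 in HFpEF + Veh against Control + Veh through -0.05 to 0.06 and -0.02 to 0.03, Nampt after TYA-018 through -0.02 to 0.07, and Sirt4 in treated against control hearts through -0.01 to 0.13. With effective lengths, HFpEF + Veh against Control + Veh reversed to -0.04 for Sirt1, -0.06 for Sirt2 and 0.12 for Sirt3, and Sirt2 was -0.01 after TYA-018 and -0.07 in treated against control hearts. On rescaled TPM the same values were -0.01, -0.02, 0.15, -0.03 and -0.05. On log2(TPM + 1), log2(TPM + 0.1) and the unfiltered table, HFpEF + Veh against Control + Veh gave -0.13, -0.26 and -0.13 for Sirt1 and -0.27, -0.28 and -0.27 for Sirt2, and after TYA-018 Sirt1 gave 0.03, 0.06 and 0.03. Treated against control hearts gave 0.02, 0.01 and 0.02 for Sirt6, 0.03, 0.04 and 0.03 for Sirt7, and 0.02, 0.03 and 0.02 for Nmnat3. No paired analysis was possible because the groups had different mice, with no number in common. Sirt1 and Sirt6, at 4.38 to 11.3 CPM, rest on the fewest counts per length of the tested members.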
